A study of Homo sapiens with 27 samples.

Results

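The genes described here are interferon-stimulated genes outside the IFIT and OAS families, followed in 3 human cell lines that overexpressed MAML3. The list holds 42 gene symbols; membership is by name and not by a measured value, although earlier results of these data were known when the list was drawn up. Of the 42, 38 were rows of the table of 23230 gene symbols, and IFI44, IFITM1, PARP10 and EPSTI1 were not analysed here. A member was used in a line where its mean over that line's 9 libraries reached 1 CPM (counts scaled to a common library total, with TMM factors). That held for all 38 measured members in SK-N-SH, for 35 in BON-1 and for 23 in QGP-1, with 22 members above 1 CPM in all 3 lines.

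As background, type I and type III interferons bind receptors at the cell surface, and Janus kinases then switch on transcription factors that enter the nucleus and bind interferon-stimulated response elements (ISREs). Interferon gamma acts mainly through another element, the gamma-activated site (GAS). The genes switched on in this way include enzymes that attach the ubiquitin-like protein ISG15 to other proteins, membrane proteins that block viral entry or release, large GTPases that act on viral particles and pathogen-containing vacuoles, and enzymes that act on viral nucleic acid. A cell that has met no virus can still carry these transcripts at a steady level, and lines differ in that level.

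The study expressed MAML3, a mastermind-like coactivator that joins the Notch transcription complex through its N-terminal end, in SK-N-SH (a neuroblastoma line) and in BON-1 and QGP-1 (both pancreatic neuroendocrine tumour lines). Cells received by lipofection the pCMV6-AC plasmid with no insert (vector), with the full-length MAML3 cDNA (FL), or with a MAML3 cDNA lacking the first exon (dEx1). Both MAML3 inserts carried a C-terminal V5 tag, and the plasmid's strong viral promoter drives expression far above the native gene. Poly(A) RNA libraries were made from RNA taken on day 3 after transfection, from 3 biological replicates per line and plasmid, 27 libraries in all. Every group, vector included, was therefore exposed to transfected plasmid DNA, and no untransfected cells were among the samples. Each line is 1 established culture, so the replicates describe the spread between platings of that line.

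Summed estimated counts per library ran from 73026244 to 120254457, with a median of 92435640. MAML3 stood at 16.3 to 29.2 CPM in the SK-N-SH vector libraries, against 7635 to 15250 with FL and 4787 to 13448 with dEx1. In BON-1 the vector range was 60.6 to 68.7 CPM, and every MAML3 library was at 2683 CPM or more. In QGP-1 the vector range was 41.3 to 100.5 CPM, and every MAML3 library was at 2421 CPM or more, so vector and MAML3 libraries were separate in each line. FL and dEx1 overlapped in MAML3 level and no value for the first exon was examined, so the labels of the 2 forms were not checked. Of the adrenergic neuroblastoma markers 5 of 6 passed 1 CPM in SK-N-SH, but tyrosine hydroxylase (TH) was at or near 0, and INSM1 was at 0 in that line. BON-1 and QGP-1 showed 5 of 5 measured neuroendocrine and 5 of 5 epithelial markers. Some libraries stood apart. The third SK-N-SH vector library lay at -40.0 on the first principal component (40.7% of variance), on the side of the dEx1 libraries, while the other vector libraries lay at 28.3 and 28.5. The second component (19.2%) set the third replicate of each SK-N-SH group lower than replicates 1 and 2 of the same group. The first BON-1 vector library lay at 107.3 on a first component of 30.2%, with the other 8 between -27.9 and 0.115. In QGP-1 the first component (39.7%) set vector replicates 2 and 3 and the third FL and dEx1 replicates between -51.0 and -41.9. The remaining QGP-1 libraries, vector replicate 1 among them, lay between 23.2 and 44.5.

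Many members carried the response element in the start-site window of their RefSeq promoter. Of the 38 measured members, 31 had an entry in the RefSeq promoter table (GRCh38.p14, 250 bases before to 50 bases after each start). A core of the ISRE, written GAAANNGAAA and searched on both strands, was present for 21 of these 31 (67.7%). The same letters were found in 3.57% of all 35116 promoters of that length, or for 4.38% of genes when a gene's several starts were joined. The GAS core TTCNNNGAA, which can overlap an ISRE, was found for 8 of 31 members (25.8%), against 7.66% of promoters and 9.38% of genes. A match describes letters in a window and does not show that a factor was bound in these cells. MX2, IFITM2, USP18, GBP2, GBP5, APOL6 and PML had no entry.

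The following 30-base stretches are a selection from members whose values are followed library by library. LGALS9, IFI27 and GBP1, among others, also have a core and are not printed. Each is written 5′ to 3′ on the strand of its gene, with the ISRE core in capitals; in RSAD2 and PARP12 the core lies in the reverse orientation and so reads as its complement.
ISG15: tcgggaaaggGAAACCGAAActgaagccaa
MX1: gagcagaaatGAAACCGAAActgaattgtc
IFITM3: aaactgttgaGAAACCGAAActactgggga
BST2: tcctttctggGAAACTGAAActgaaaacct
ISG20: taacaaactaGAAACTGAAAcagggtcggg
RSAD2: ctgtttcaacTTTCAGTTTCacatgtggaa
RTP4: accgaacaccGAAACTGAAActgtttgtct
PARP12: ccggggccgcTTTCGGTTTCgtttcccgcc
DTX3L: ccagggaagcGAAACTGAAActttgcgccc
In GRCh38.p14 the ISG15 stretch is chr1:1013380-1013409, on the plus strand and centred 102 bases before the start. The BST2 stretch is chr19:17405741-17405770, on the minus strand, and overlaps a second core 6 bases further on. The ISG20 stretch is chr15:88638937-88638966, and the MX1 stretch is chr21:41420559-41420588, centred 16 bases into the transcript. The RSAD2, RTP4 and PARP12 stretches are chr2:6877622-6877651, chr3:187368357-187368386 and chr7:140062942-140062971. The IFITM3 stretch is chr11:320876-320905. The DTX3L stretch, chr3:122564322-122564351, is also the element of PARP9, which is read from the opposite strand there, so this pair shares 1 element.

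The 3 lines differed widely in the level of the members in cells given the plasmid with no insert. A line's resting level and its response to the transfected plasmid cannot be told apart in these libraries. In the vector libraries, 33 of 38 members stood at 100 CPM or more in SK-N-SH, 10 in BON-1 and 2 in QGP-1, and the median member level was 308.0, 45.5 and 2.06 CPM. The order from SK-N-SH (highest) through BON-1 to QGP-1 (lowest) held for the means of 35 of 38 members. GBP2 was highest in BON-1, LGALS3BP was highest in QGP-1, and IFI16 was higher in QGP-1 than in BON-1. These levels come from a fit of the 9 vector libraries with scaling of its own, so they differ slightly from the values given within a line.

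Between SK-N-SH and BON-1 vector libraries, 34 of 38 members were higher in SK-N-SH and none was lower (edgeR quasi-likelihood test, Benjamini-Hochberg adjusted over all genes, threshold 0.05, the test used throughout). Among all 15763 genes tested, 26.8% were called higher in SK-N-SH and 54.5% were called in either direction. The members' median log2 difference was 2.57, against -0.02 over all genes. ISG15, GBP2, ISG20 and LGALS3BP were the 4 members not called. Between SK-N-SH and QGP-1, 36 of 38 members were higher in SK-N-SH (all genes, 26.9% higher and 55.0% either way), and the median log2 difference was 6.70 with genes at 0 in QGP-1 set to their bound. Between QGP-1 and BON-1, 29 of 36 members were lower in QGP-1 and 1 was higher (all genes, 22.6% lower, 21.0% higher and 43.6% either way). All 34 and all 36 calls against SK-N-SH held under every alternative tried. Of the 30 calls between QGP-1 and BON-1, 28 held under every alternative, and SP100 and LGALS9 did not.

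ISG15, the ubiquitin-like modifier, was at 825, 806 and 783 CPM in the SK-N-SH vector libraries. In BON-1 it was at 962, 252.5 and 507 CPM, a range that reached above and below that of SK-N-SH (log2 difference 0.49, adjusted p = 0.325). In QGP-1 it was at 41.6, 52.8 and 56.9 CPM, 16.0-fold lower than in SK-N-SH (adjusted p = 7.453e-05). MX1, a dynamin-like GTPase that binds viral nucleocapsids, was at 1837, 1732 and 1641 CPM in SK-N-SH and at 219, 87.8 and 293 in BON-1. This was an 8.68-fold difference with no overlap between the groups (adjusted p = 0.000183). In QGP-1 MX1 was low, at 1.69, 1.17 and 1.22 CPM, 1275-fold below SK-N-SH (adjusted p = 1.468e-06).

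IFITM3, a membrane protein that blocks fusion of entering viruses, was at 1846, 1821 and 1473 CPM in SK-N-SH and at 395, 160.2 and 250.3 in BON-1. It was at 0.914, 0.629 and 0.757 CPM in QGP-1, so that line carried almost none of it. Reads of IFITM3 and IFITM2 may have been split between these near-identical neighbours in the counting, so their separate levels are uncertain. ADAR, the enzyme that edits adenosine in double-stranded RNA and has a constitutive promoter beside its interferon-driven one, varied far less. Its levels were 1880, 1829 and 1727 CPM in SK-N-SH, 917, 628 and 619 in BON-1 and 594, 668 and 696 in QGP-1. SK-N-SH stood 2.51-fold above BON-1 (adjusted p = 0.000356) and 2.78-fold above QGP-1, while BON-1 and QGP-1 overlapped and the test found no difference (adjusted p = 0.575).

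The widest gaps were in members that BON-1 or QGP-1 hardly expressed. SAMD9L, a growth-restraining antiviral factor, was at 1055, 1035 and 935 CPM in SK-N-SH and at 4.06, 1.96 and 10.5 in BON-1, a 182.5-fold difference (log2 7.51, SE 0.71, adjusted p = 0.000117). XAF1, which binds the apoptosis inhibitor XIAP, was at 254, 258 and 143 CPM in SK-N-SH and at 1.72, 1.63 and 4.15 in BON-1, 87.1-fold apart (adjusted p = 5.484e-05). IFI16, a nuclear DNA sensor, was at 1085, 1023 and 927 CPM in SK-N-SH and at 0.129, 0 and 0.560 in BON-1. These 3 genes were thus abundant in 1 line and nearly silent in another. IFI16 was at 7.89, 9.44 and 9.07 CPM in QGP-1, and it was the 1 member called higher in QGP-1 than in BON-1 (adjusted p = 0.000757). GBP5, a guanylate-binding GTPase of the inflammasome response, was at 134.5, 118 and 67.6 CPM in SK-N-SH and at 0.0717, 0.270 and 0.373 in BON-1. RTP4, a chaperone-like protein that binds viral replication complexes, was at 16.1, 17.4 and 12.5 CPM in SK-N-SH and at 0.158, 0 and 0 in BON-1.

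HERC5, GBP5, SAMD9L, XAF1 and RTP4 were at 0 in all 3 QGP-1 vector libraries. PARP14, a mono-ADP-ribosyltransferase, was at 0, 0 and 0.0829 CPM there, against 838, 833.5 and 698 in SK-N-SH and 237, 98.6 and 180 in BON-1. IFI44L was at 0, 0 and 0.0415 CPM in QGP-1, against 806, 794 and 540 in SK-N-SH and 37.9, 6.48 and 23.6 in BON-1. These 7 members were thus at 0 or near it in QGP-1 and well expressed in SK-N-SH. Against a floor of 15 count units per library, SAMD9L was at least 6177-fold higher in SK-N-SH than in QGP-1, HERC5 at least 1500-fold, XAF1 at least 1337-fold, GBP5 at least 653-fold and RTP4 at least 94.0-fold. The same floor put BON-1 at least 72.4-fold above QGP-1 for HERC5, the ligase that conjugates ISG15, at least 33.8-fold for SAMD9L and at least 15.3-fold for XAF1. The floor stands for 3 fragments if each is worth 5 units, the value at which low counts in the table pile up. No source states that worth, and the floor covers counting error only.

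**Figure D1:**
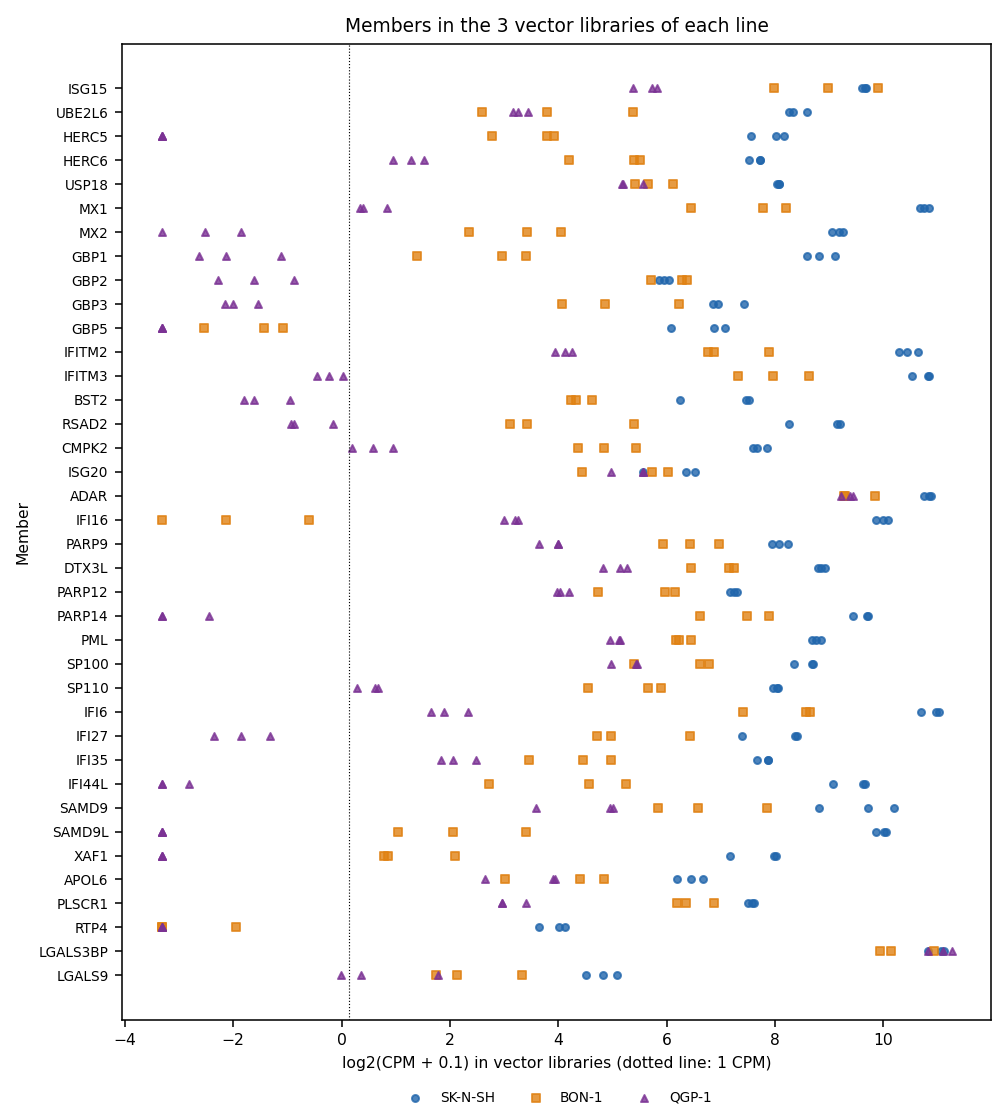
Level of each of the 38 measured members in the 3 vector libraries of each line on a log2(CPM + 0.1) axis, 1 point per library and a dotted line at 1 CPM. For most members the SK-N-SH points lie highest and the QGP-1 points lowest, with 15 members under 1 CPM in QGP-1; ADAR, ISG20 and LGALS3BP lie closest together.

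In SK-N-SH, no member passed the test for full-length MAML3 against vector in either direction. Single members ran from -0.78 to 0.93 in log2, and with 3 libraries per group a test not passed does not show that a member was unchanged. Over all 14674 genes tested, 1.74% were called (137 higher and 118 lower). At an unadjusted p under 0.05 in edgeR the count was 2 of 38 (all genes, 15.7%). DESeq2 with its own adjustment also called 2 of 38. Its all-gene count is not given here, so that number alone shows no result about the members. The members' median log2 fold change was 0.13, against -0.01 over all genes, with 26 members above and 12 below their vector level (all genes, 50.9% below). Groups of 3 libraries that did not overlap were found for 11 members with FL above vector and for 3 with FL below, where all genes gave 11.5% and 9.98%.

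The 2 smallest p-values belonged to GBP2 and PARP12. GBP2, a guanylate-binding GTPase, was at 63.7, 56.2 and 61.2 CPM with vector and at 36.4, 44.6 and 45.2 with FL. No FL library reached the vector range, and the log2 change was -0.52 (SE 0.12, adjusted p = 0.0622 in edgeR's quasi-likelihood test and 0.00157 in DESeq2). PARP12, a mono-ADP-ribosyltransferase, was at 153, 148 and 142 CPM with vector and at 220, 239 and 260 with FL. Here all FL libraries were above all vector libraries, with a log2 change of 0.70 (SE 0.21, adjusted p = 0.143 in edgeR and 0.0304 in DESeq2).

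The 4 genes followed in every line moved little with FL in SK-N-SH. ISG15 was at 797, 783 and 772 CPM with vector and at 743, 793 and 1076 with FL (log2 0.15, adjusted p = 0.869). MX1 was at 1775, 1682 and 1619 CPM with vector and at 1563, 1622 and 2022 with FL (log2 0.04, adjusted p = 0.979). For both genes the FL libraries lay on either side of the vector libraries. IFITM3 was at 1783, 1769 and 1454 CPM with vector and at 2112, 1940 and 2153 with FL, above vector in all 3 libraries but short of the threshold (log2 0.31, adjusted p = 0.557). ADAR was at 1816, 1776 and 1704 CPM with vector and at 1802, 1867 and 1698 with FL (log2 0.02, adjusted p = 0.974).

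MAML3 without its first exon gave a different picture in SK-N-SH. With dEx1, 28 of 38 members fell against vector and none rose, while 4.47% of all genes were called and 3.64% were called lower. All 38 members had a negative log2 fold change (all genes, 48.7%), with a median of -1.27 and a range from -3.69 to -0.44, where the median over all genes was 0.01. In 37 members every dEx1 library lay below every vector library (all genes, 14.1%), SAMD9 being the exception. An interferon list of this series was already known to be lower in these libraries when the members were chosen, so the direction is not independent evidence. In bulk RNA, fewer cells that express a gene and less of its RNA per cell cannot be told apart.

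How many members passed the threshold depended on which library was left out. Without vector replicate 1, vector replicate 2 or dEx1 replicate 1 the count was 6, in fits that called 108 of 14957, 154 of 15039 and 80 of 15087 genes. Without FL replicate 1 or 2, which enter only through the shared spread, it was 13 (369 of 15041 and 427 of 14961 genes). Without dEx1 replicate 2 it was 16 (350 of 15036 genes), and without FL replicate 3 it was 24 (826 of 15012 genes). Without dEx1 replicate 3 it was 29 (268 of 15074 genes), and without vector replicate 3 it was 34 (2558 of 15043 genes). The all-gene count thus moved with the member count in most of these fits. The median log2 fold change over these 9 fits stayed between -1.40 and -1.05. DESeq2 called 38 members and 1997 of 14674 genes, against 656 genes in edgeR. ISG20 and GBP2 passed under every alternative, and GBP1, SAMD9L and RTP4 also passed with any 1 library left out.

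**Figure D2:**
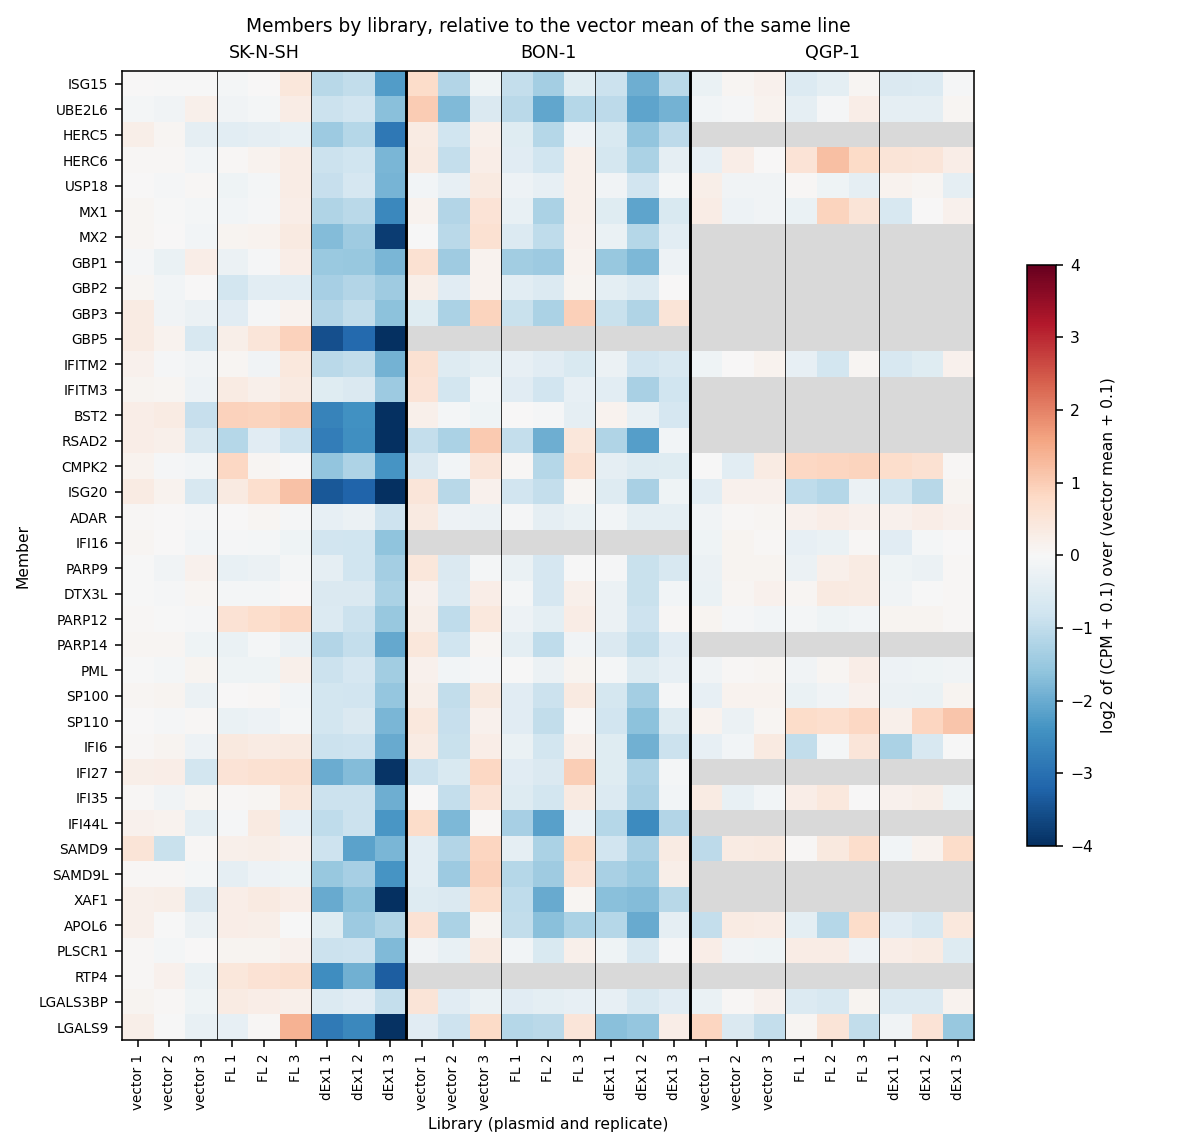
Heat map of the 38 measured members (vertical) in the 27 libraries (horizontal), each cell the log2 ratio of CPM + 0.1 to the vector mean of the same line, with colours limited at -4 and 4 and grey for members under 1 CPM on average in that line. The 3 SK-N-SH dEx1 libraries are low for nearly all members, the third most of all. SK-N-SH FL stays nearer to vector for most members, and BON-1 replicate 2 is low in each group.

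The enzymes and sensors of nucleic acid held several of the largest falls with dEx1. In this role 4 of 5 members passed, with a median log2 fold change of -1.66. ISG20, a 3′ exonuclease of single-stranded RNA, was at 89.0, 79.2 and 46.3 CPM with vector, at 90.9, 113 and 160.5 with FL and at 6.72, 7.61 and 3.49 with dEx1. The dEx1 libraries lay far below all 6 others. ISG20 fell 12.0-fold against vector (log2 -3.59, SE 0.38, adjusted p = 0.00475). RSAD2 (viperin), which makes a chain-terminating nucleotide, was at 566, 547.5 and 304 CPM with vector, 214, 343 and 267 with FL and 69.5, 86.1 and 18.02 with dEx1. No dEx1 library came near either other group, and the fall was 8.16-fold (log2 -3.03, SE 0.53, adjusted p = 0.0190). Without vector replicate 1, vector replicate 2 or dEx1 replicate 1 the adjusted p of RSAD2 rose above the threshold, to at most 0.0724. CMPK2, its neighbour and partner in nucleotide supply, was at 191 to 223 CPM with vector and at 39.2 to 86.4 with dEx1 (log2 -1.66, adjusted p = 0.0216). The pair overlaps in the annotation, and reads counted without strand could be shared between them. IFI16 fell by 1.01 on the log2 scale (adjusted p = 0.0293).

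ADAR moved least of all members. It was at 1816, 1776 and 1704 CPM with vector and at 1411, 1488 and 998 with dEx1. All 3 dEx1 libraries lay below vector, by 0.44 on the log2 scale (SE 0.14), and the test was not passed (adjusted p = 0.114).

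Among the large GTPases 5 of 6 passed, with a median log2 fold change of -1.54. GBP5 was at 130.0, 114 and 66.7 CPM with vector, at 123, 144 and 196 with FL and at 8.93, 12.0 and 3.19 with dEx1. This was the largest fall of any member, 12.9-fold (log2 -3.69, SE 0.48, adjusted p = 0.00883), and it missed the threshold only without dEx1 replicate 1 (adjusted p = 0.0508) among the left-out libraries. GBP2 was at 24.0, 26.5 and 22.3 CPM with dEx1, below the FL range as well as the vector range given above (log2 -1.32, adjusted p = 0.00282). GBP1 was at 432, 373 and 542 CPM with vector and at 162, 158 and 127 with dEx1 (log2 -1.59, adjusted p = 0.00611). The guanylate-binding proteins lie close together on chromosome 1, with 29.0 kb between GBP3 and GBP1 and 40.8 kb between GBP1 and GBP2. MX1 was at 734, 805 and 285 CPM with dEx1, against 1619 to 1775 with vector, and fell 2.78-fold (log2 -1.48, SE 0.33, adjusted p = 0.0418). MX2, its paralog 10.6 kb away that acts against retroviral import into the nucleus, was at 167, 209 and 39.7 CPM with dEx1 and at 588, 566 and 522 with vector (log2 -2.01, adjusted p = 0.0520, not passed).

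In the ISG15 conjugation role, which includes ISG15 itself and USP18, all members were lower and 4 of 5 passed (median log2 -1.10). ISG15 was at 362, 400 and 165 CPM with dEx1, with no overlap with the vector libraries at 772 to 797 CPM, and fell 2.54-fold (log2 -1.34, SE 0.29, adjusted p = 0.0409). The adjusted p of ISG15 and MX1 passed the threshold only narrowly and rose to at most 0.136 and 0.144 when vector replicate 1 or 2, FL replicate 1 or 2, or dEx1 replicate 1 or 2 was left out. UBE2L6, the E2 enzyme of the pathway, was at 296 to 379 CPM with vector and at 103 to 192 with dEx1 (log2 -1.05, adjusted p = 0.0430). HERC5, the main ligase, was at 187 to 277 CPM with vector and at 33.0 to 108 with dEx1 (log2 -1.65, adjusted p = 0.0421). HERC6, a relative 14.0 kb from HERC5, changed by -1.10 on the log2 scale (adjusted p = 0.0365). USP18, which removes ISG15 and restrains the receptor, was at 255 to 267 CPM with vector and at 71.8 to 164 with dEx1 (log2 -1.07, adjusted p = 0.0595, not passed).

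Of the 3 membrane restriction factors, BST2 and IFITM2 passed. BST2 (tetherin), which holds budding virions at the cell surface, was at 171, 179 and 75.3 CPM with vector, at 267, 262 and 279 with FL and at 22.3, 26.6 and 4.38 with dEx1. The 3 groups did not overlap, FL being highest and dEx1 lowest. BST2 fell 7.98-fold against vector (log2 -3.00, SE 0.60, adjusted p = 0.0292). That call was lost without vector replicate 1 or 2, FL replicate 1 or 2, or dEx1 replicate 1 or 2, with an adjusted p of at most 0.102. IFITM2 was at 1236 to 1551 CPM with vector and at 368 to 693 with dEx1 (log2 -1.27, adjusted p = 0.0247). IFITM3, 10.3 kb away, was at 1188, 1111 and 616 CPM with dEx1, below all vector libraries, but did not pass (log2 -0.78, SE 0.22, adjusted p = 0.0826).

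The ADP-ribosylation group moved less, with 3 of 4 members past the threshold and a median of -0.85. PARP14 was at 689 to 810 CPM with vector and at 187 to 401 with dEx1 (log2 -1.31, adjusted p = 0.0219). PARP12 was at 102, 81.4 and 51.9 CPM with dEx1 (log2 -0.91, adjusted p = 0.0449), having stood above vector with FL. DTX3L, a ubiquitin ligase that works as a complex with PARP9, was at 188 to 302 CPM with dEx1 and 434 to 477 with vector (log2 -0.78, adjusted p = 0.0372). PARP9, which shares the element printed above with DTX3L, changed by a like amount and did not pass (log2 -0.78, SE 0.22, adjusted p = 0.0818). These genes overlap head to head in the annotation, so their reads may also be shared. In the nuclear bodies, PML changed by -0.94 (adjusted p = 0.0259), SP100 by -0.98 (adjusted p = 0.0305) and SP110 by -0.96 (adjusted p = 0.0758, not passed).

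Among the IFI proteins 2 of 4 passed. IFI27, a mitochondrial protein often used as a marker of the interferon response, was at 320, 330.1 and 165 CPM with vector, at 397, 415 and 420 with FL and at 69.1, 81.5 and 17.9 with dEx1 (log2 -2.27, adjusted p = 0.0408 against vector). IFI35 changed by -1.15 (adjusted p = 0.0482). IFI6 was at 1632 to 2016 CPM with vector and at 457 to 1051 with dEx1 (log2 -1.14, adjusted p = 0.0527), and IFI44L was at 532 to 779 and at 138 to 382 (log2 -1.27, adjusted p = 0.0833). These last 2 genes lay below vector in all dEx1 libraries without passing the test.

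The remaining effectors gave 6 of 8 calls, with a median of -1.58. LGALS9, a galactoside-binding lectin that acts on immune cells, was at 32.8, 27.6 and 22.5 CPM with vector, at 22.0, 28.3 and 72.3 with FL and at 3.80, 4.53 and 1.70 with dEx1. The dEx1 libraries were separate from the rest, 8.27-fold below vector (log2 -3.05, SE 0.51, adjusted p = 0.0166), though the call was lost without vector replicate 1 or 2 or dEx1 replicate 1 (adjusted p at most 0.0707). Near-identical copies of LGALS9 in the genome may take some of its reads. RTP4 was at 15.5, 16.9 and 12.3 CPM with vector, 20.3, 22.4 and 23.6 with FL and 2.58, 3.84 and 1.42 with dEx1, a 5.70-fold fall against vector (log2 -2.51, adjusted p = 0.00818). Its 3 groups were also fully separate. XAF1 was at 141 to 250.3 CPM with vector and at 13.2 to 67.9 with dEx1 (log2 -2.26, adjusted p = 0.0430). SAMD9L was at 1019, 1005 and 923 CPM with vector and at 347, 389 and 193 with dEx1 (log2 -1.67, adjusted p = 0.00941). Its neighbour SAMD9, 12.0 kb away, varied from 436 to 1132 CPM among the vector libraries and overlapped the dEx1 range of 181 to 454 (log2 -1.48, adjusted p = 0.0730). PLSCR1, a phospholipid scramblase, changed by -1.09 (adjusted p = 0.0285), and LGALS3BP, a secreted galectin-3 ligand, by -0.64 (adjusted p = 0.0346). APOL6 changed by -0.99 and did not pass (adjusted p = 0.0534).

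**Figure D3:**
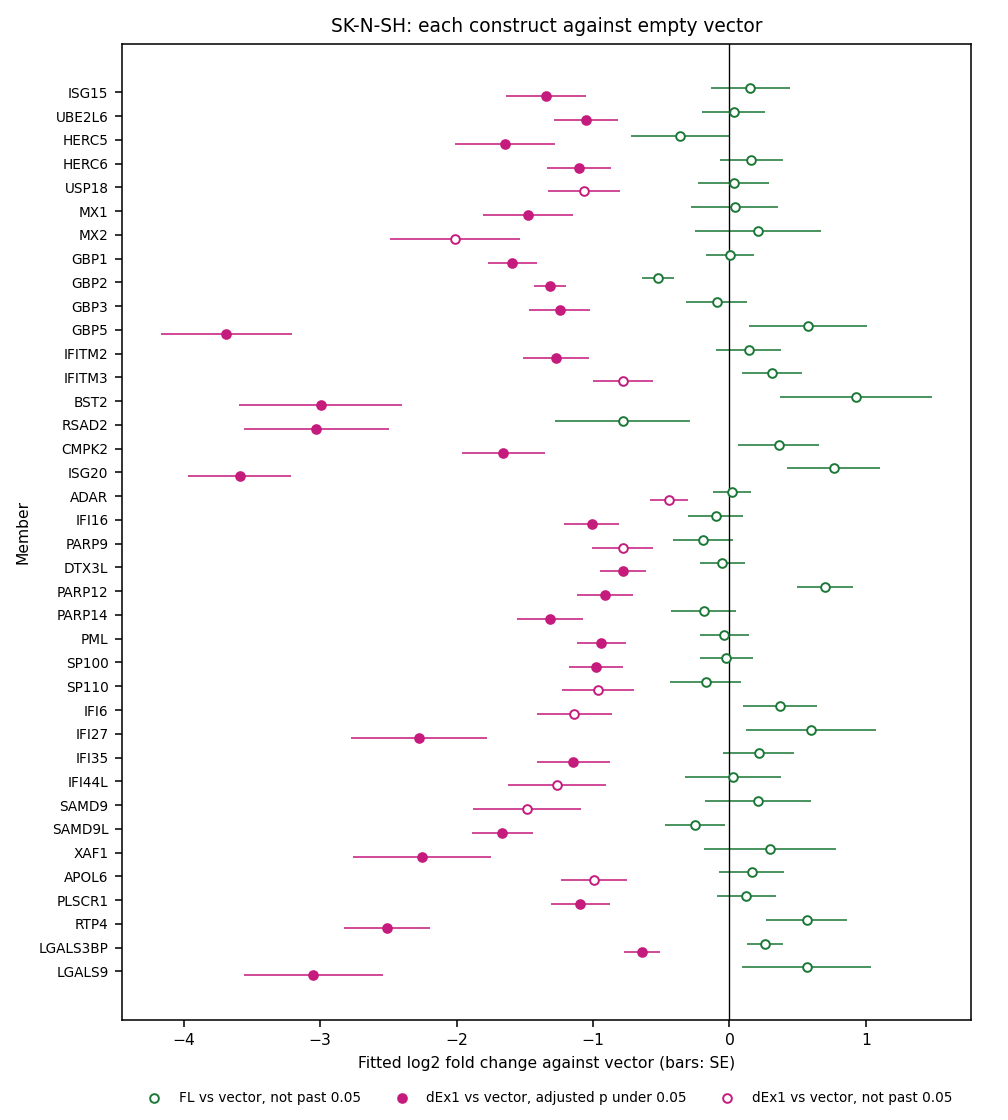
Fitted log2 fold change of each of the 38 members in SK-N-SH for FL against vector (green) and dEx1 against vector (magenta), with bars of 1 standard error from edgeR and filled points for adjusted p under 0.05. FL lies on both sides of 0, from -0.78 to 0.93, with no filled point. The dEx1 change lies below 0 for every member, from -0.44 for ADAR to -3.69 for GBP5, with 28 filled points.

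The members with an ISRE core in their promoter window and those without were both lower with dEx1. Of the 21 members with the core, 16 passed against vector (all genes, 3.64% called lower), with a median log2 fold change of -1.34. Of the 10 members with an entry and no core, 8 passed, with a median of -1.08. Of the 7 members with no entry, 4 passed, with a median of -1.27. Of the 5 largest falls, those of ISG20, LGALS9, RSAD2 and BST2 were in genes with the core, and GBP5 had no entry. The core was present in 21 of all 31 members with an entry.

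Against full-length MAML3 nearly all members were lower with dEx1. Of the 38, 36 passed the test and none was higher, in a comparison in which 22.0% of all genes were called and 11.5% were called lower. All 38 members had dEx1 and FL libraries that did not overlap (all genes, 21.5% with dEx1 below). All differences were negative (all genes, 50.0%), with a median log2 difference of -1.33 and a range of -4.35 to -0.46. PARP9 (log2 -0.59, adjusted p = 0.0883) and SP110 (log2 -0.79, adjusted p = 0.0621) did not pass. Leaving out any 1 library gave counts of 32 to 36, and 30 of the 36 calls held in all of those fits. The all-gene counts of those fits are not given here, so this range alone shows no result about the members. This comparison uses the same dEx1 libraries as the one against vector, so the 2 are not separate pieces of evidence.

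The members with the widest gaps between the 2 MAML3 forms were ISG20, GBP5, BST2, LGALS9 and RTP4. ISG20 was 20.4-fold lower with dEx1 (log2 -4.35, SE 0.39, adjusted p = 0.000550). GBP5 was 19.2-fold lower (log2 -4.26, SE 0.49, adjusted p = 0.00132), and BST2 was 15.2-fold lower (log2 -3.92, SE 0.62, adjusted p = 0.00364). For each of these genes the third FL library was the highest of its group and the third dEx1 library was the lowest. LGALS9 was 12.2-fold lower (log2 -3.61, adjusted p = 0.00266) and RTP4 8.44-fold lower (log2 -3.08, adjusted p = 0.000906). ISG15 differed by -1.49 on the log2 scale (adjusted p = 0.00894), MX1 by -1.51 (adjusted p = 0.0128) and IFITM3 by -1.09 (adjusted p = 0.00990). ADAR differed by -0.46 (adjusted p = 0.0466), a call that several alternatives lost, with an adjusted p of at most 0.118.

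**Figure D4:**
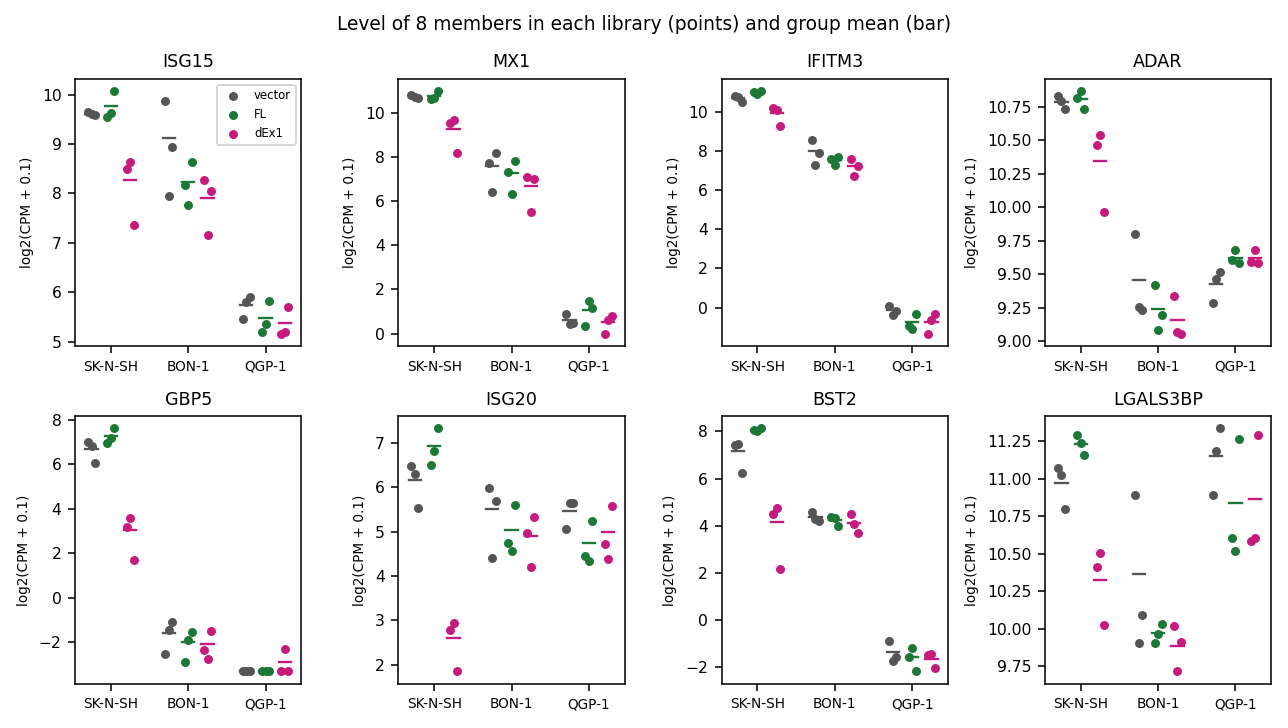
Level of ISG15, MX1, IFITM3, ADAR, GBP5, ISG20, BST2 and LGALS3BP in each of the 27 libraries as log2(CPM + 0.1), 1 point per library grouped by line and plasmid, with bars for group means; the vertical axis differs between panels. In SK-N-SH the dEx1 points of GBP5, ISG20 and BST2 lie far below vector and FL, whereas the plasmids overlap in BON-1, and the 3 lines differ most for MX1, IFITM3 and GBP5.

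The third dEx1 library was the lowest of its group for 36 of 38 members in SK-N-SH. The mean log2 CPM over the members, relative to the vector mean, was -1.30, -1.23 and -2.34 in dEx1 replicates 1, 2 and 3. It was 0.04, 0.12 and 0.25 with FL, and 0.14, 0.02 and -0.16 with vector, so replicate 3 was the highest with FL and the lowest with vector and dEx1. MAML3 itself was at 9017, 13448 and 4787 CPM in the same dEx1 libraries. DBH, an adrenergic marker, was at 3.13 to 4.86 CPM in the third replicate of each SK-N-SH group and at 23.7 to 43.2 CPM in replicates 1 and 2. With only replicates 1 and 2 of each group, 35 of 38 members passed the test as lower with dEx1 than with vector, in a fit that called 3267 of 14808 genes.

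Leukocyte markers were checked because some of them moved with the members in SK-N-SH. Of 8 listed markers 7 were measured and 2 passed 1 CPM. Their summed level was 218 to 311 CPM with vector, 405 to 523 with FL and 77.8 to 92.1 with dEx1. CD3E, which defines T cells, was at 0 in every library, and PTPRC (CD45) reached at most 1.05 CPM. Nearly all of the sum came from CD68, a lysosomal protein that is not limited to leukocytes, at 307, 281 and 216 CPM with vector, 403, 439 and 522 with FL and 75.8, 89.2 and 80.9 with dEx1.

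The rest of the pathway was examined through 42 further genes listed by role, of which 32 passed 1 CPM in SK-N-SH. With FL none of the 32 was called against vector in edgeR (4 at an unadjusted p under 0.05, where all genes gave 15.7%). DESeq2 called 1, and its all-gene count is not given here. With dEx1, 17 of 32 fell against vector (all genes, 3.64% lower) and none rose, and against FL 24 of 32 were lower (all genes, 11.5%). IFNB1 and IFNL1, the 2 interferons above 1 CPM, fell. IFNB1, the type I interferon of non-immune cells, was at 21.4, 16.7 and 6.68 CPM with vector, at 1.71, 3.54 and 5.46 with FL and at 0.0582, 0.675 and 0.0569 with dEx1. The log2 change against vector was -5.79 with dEx1 (SE 0.99, adjusted p = 0.0174), while FL did not pass (-2.06, adjusted p = 0.263). IFNL1, a type III interferon, was at 14.4, 11.2 and 3.73 CPM with vector and at 0, 0.467 and 0.102 with dEx1 (adjusted p = 0.0271). IFNL2 was below 1 CPM on average and did not pass (log2 -5.95, adjusted p = 0.0611). IFNG, IFNE and IFNK were at 0 in every SK-N-SH library.

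None of the 6 receptor genes was called against vector with dEx1 (1 at an unadjusted p under 0.05). IFNAR1 and IFNAR2, the chains of the type I receptor, changed by 0.07 and -0.06 on the log2 scale (adjusted p = 0.781 and 0.732). Of 8 signal transducers 3 fell, namely the kinase JAK2 (log2 -1.02, adjusted p = 0.0121) and the transcription factors IRF1 (log2 -1.75, adjusted p = 0.0140) and IRF2 (log2 -1.46, adjusted p = 0.0185). IRF9 changed by -0.45 (adjusted p = 0.0519, not passed). Of 6 sensors 5 fell, TLR3 by 1.83 on the log2 scale (adjusted p = 0.00883) and IFIH1 (MDA5) by 1.57 (adjusted p = 0.0204). The IFIT and OAS genes gave 7 of 8 calls, led by IFIT2 (log2 -3.80, adjusted p = 0.00883). The feedback inhibitor SOCS1 was not called (log2 -0.77, adjusted p = 0.0701). In BON-1 28 and in QGP-1 24 of the 42 pathway genes passed 1 CPM, and edgeR and DESeq2 called 0 of them in every comparison. At an unadjusted p under 0.05 edgeR gave 0, 4 and 0 in BON-1 for FL against vector, dEx1 against vector and dEx1 against FL (all genes, 3.86%, 2.88% and 1.05%). In QGP-1 it gave 1, 2 and 1 (all genes, 5.08%, 3.63% and 1.28%). IFNB1 was at 0 in every BON-1 library and reached at most 0.0714 CPM in QGP-1.

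In BON-1 no member passed the test in any of the 3 comparisons, and DESeq2 also called 0. Over all 14903 genes the test called 0.00671% for FL against vector, 0.0134% for dEx1 against vector and 0% for dEx1 against FL, so this line gave almost no calls of any kind. At an unadjusted p under 0.05 the members' counts were 1, 6 and 0, all lower (all genes called lower at that p, 2.27%, 1.58% and 0.550%). The median log2 fold changes were -0.33 with FL and -0.60 with dEx1 against vector, and -0.27 for dEx1 against FL. Negative values were found for 33, 35 and 34 of the 35 members used (all genes, 52.5%, 53.5% and 49.6%). Replicates with the same number varied together in this line, and replicate 2 was the lowest of its group for 31, 31 and 32 of 35 members with vector, FL and dEx1. Within pairs of the same number, dEx1 was below vector in all 3 pairs for 31 of 35 members (all genes, 17.4%). FL was below vector in all 3 pairs for 16 of 35 (all genes, 16.3%), and dEx1 was below FL in all 3 for 18 of 35 (all genes, 15.5%). A fit with the replicate number as a block called no member either. Without vector replicate 1, the library that stood apart, the counts stayed at 0 and the median for FL moved from -0.33 to -0.17, and for dEx1 from -0.60 to -0.56. Other single libraries moved these medians too. The FL median was -0.12 without vector replicate 3, -0.11 without FL replicate 2, -0.59 without vector replicate 2 and -0.63 without FL replicate 3. The dEx1 median was -0.37 without vector replicate 3, -0.39 without dEx1 replicate 2, -0.87 without dEx1 replicate 3 and -0.90 without vector replicate 2. Between dEx1 and FL the median was -0.01 without FL replicate 3, -0.05 without dEx1 replicate 2, -0.42 without dEx1 replicate 3 and -0.53 without FL replicate 2, so its size rested on single libraries.

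ISG15 in BON-1 was at 935, 246.5 and 493 CPM with vector, at 289, 218 and 397 with FL and at 307, 144 and 266 with dEx1. MX1 was at 213, 85.8 and 285 CPM with vector, at 160.2, 80.2 and 223 with FL and at 138, 45.1 and 128 with dEx1. In both genes the vector libraries spread several-fold and overlapped the others. IFITM3 was at 384, 156 and 243 CPM with vector, 192, 154 and 210 with FL and 193.5, 106 and 151 with dEx1, and ADAR was at 891, 613 and 602, at 684.5, 542 and 588 and at 647, 536.5 and 532. HERC5 had the smallest p with dEx1, at 14.6, 6.62 and 13.3 CPM with vector and at 7.43, 3.79 and 5.56 with dEx1 (log2 -1.04, SE 0.37, adjusted p = 0.916). XAF1 followed, at 1.67, 1.59 and 4.04 CPM with vector and at 0.700, 0.660 and 1.07 with dEx1 (log2 -1.59, SE 0.60), and was the 1 member whose dEx1 libraries all lay below vector (all genes, 3.60%). With FL the smallest p was that of APOL6, at 27.9, 7.78 and 20.4 CPM with vector and at 9.44, 5.82 and 7.66 with FL (log2 -1.29, adjusted p = 0.928). UBE2L6 came next, at 40.5, 5.78 and 13.3 CPM with vector and at 9.44, 4.68 and 9.06 with FL (log2 -1.36, adjusted p = 0.928), the first vector library being far above the rest. Between dEx1 and FL the smallest p-values were those of IFI6, at 255, 187 and 354 CPM with FL and 220.2, 81.8 and 169 with dEx1 (log2 -0.76), and of PML, at 75.1, 64.0 and 81.0 and at 71.2, 53.5 and 60.8 (log2 -0.25).

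In QGP-1 the median change of the 23 members used was close to 0 against vector with either form. Single members ran from -0.74 to 0.90 in log2 with FL and from -0.57 to 0.81 with dEx1. On the first principal component, vector replicates 2 and 3 lay with the third FL and dEx1 replicates and apart from the rest. That split enters each comparison with vector. No member passed in any comparison, where 0.0275% (FL against vector), 0.0207% (dEx1 against vector) and 0.0138% (dEx1 against FL) of all 14522 genes were called. At an unadjusted p under 0.05 the counts were 3 higher, 1 higher and 0 (all genes, 2.90% higher, 2.23% higher and 1.28% either way). DESeq2 called 1 member (HERC6 with FL, adjusted p = 0.0495), 0 and 0, and its all-gene counts are not given here. The median log2 fold changes were -0.003, -0.11 and -0.11. Same-numbered FL and dEx1 libraries varied together here, and dEx1 was below FL in all 3 pairs for 9 of 23 members (all genes, 15.0%); the fit with the replicate number as a block also called 0. HERC6 was at 1.94, 2.92 and 2.44 CPM with vector and at 3.62, 5.71 and 4.17 with FL (log2 0.89, edgeR adjusted p = 0.732). CMPK2 was at 1.48, 1.10 and 1.92 CPM with vector and at 2.71, 2.81 and 2.87 with FL (log2 0.90, adjusted p = 0.879). Both genes were higher in all FL libraries, at levels of a few CPM. SP110 had the smallest p with dEx1, at 1.57, 1.18 and 1.51 CPM with vector and at 1.64, 2.63 and 3.18 with dEx1 (log2 0.81). Between dEx1 and FL the smallest p-values were those of DTX3L, at 32.3, 35.7 and 37.1 CPM with dEx1 and 38.0, 45.7 and 44.7 with FL (log2 -0.29), and of PARP12, at 18.9, 19.1 and 18.04 and at 16.6, 15.5 and 16.3 (log2 0.21). ISG15 was at 43.8, 55.8 and 59.9 CPM with vector, 36.4, 40.7 and 56.5 with FL and 35.5, 36.5 and 52.0 with dEx1, and ADAR was at 625, 706 and 733, at 779, 820 and 769 and at 771, 822 and 767. MX1 was at 1.78, 1.23 and 1.29 CPM with vector, 1.18, 2.72 and 2.11 with FL and 0.886, 1.44 and 1.64 with dEx1. The groups overlapped for ISG15 and MX1, and ADAR stood above vector in all 6 MAML3 libraries without passing the test.

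Whether the effects differed between lines was tested directly in 1 fit of all 27 libraries. For dEx1 against vector, 1 of 38 members differed between SK-N-SH and BON-1 and 1 of 38 between SK-N-SH and QGP-1 (all genes, 0.332% and 0.521%), and in both cases it was ISG20. Its log2 change in SK-N-SH minus that in BON-1 was -2.985 (SE 0.62, adjusted p = 0.0370), and minus that in QGP-1 it was -3.104 (SE 0.62, adjusted p = 0.0211). In BON-1 ISG20 was at 63.5, 21.1 and 51.4 CPM with vector and at 31.4, 18.4 and 39.9 with dEx1, and in QGP-1 at 33.1, 49.7 and 49.6 and at 26.2, 20.6 and 47.8. The fall of ISG20 in SK-N-SH was thus not matched in either other line. The difference from BON-1 was lost without SK-N-SH vector replicate 1 or 2, FL replicate 2, or dEx1 replicate 1 or 3, and without BON-1 vector replicate 2 or 3, FL replicate 1, or dEx1 replicate 1 or 3 (adjusted p at most 0.120). The difference from QGP-1 was lost without replicate 1 or 2 of vector or replicate 3 of dEx1 in either line (adjusted p at most 0.0794). For the other 37 members a difference between lines was not shown in this fit. The 38 counted here include 3 members under 1 CPM in BON-1 and 15 under 1 CPM in QGP-1, for which a change in that line could not be measured.

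For dEx1 against FL, 4 members differed between SK-N-SH and BON-1 and 3 between SK-N-SH and QGP-1 (all genes, 3.97% and 3.47%). For ISG20 the log2 change in SK-N-SH minus that in BON-1 was -4.22 (SE 0.63, adjusted p = 0.000584). Against QGP-1 its log2 difference was -4.60 (SE 0.64, adjusted p = 0.000393). The change of BST2 differed in log2 by -3.81 from BON-1 (SE 0.63, adjusted p = 0.00147), where it was at 12.9 to 23.7 CPM in every library. BST2 was also among the 3 called against QGP-1, but it reached at most 0.436 CPM there, so that call restates its change in SK-N-SH. PARP12 differed by -1.82 from QGP-1 (SE 0.39, adjusted p = 0.0106). The differences of ISG20 from both lines, of BST2 from BON-1 and of PARP12 from QGP-1 held under every alternative. PARP12 differed by -1.39 from BON-1 (adjusted p = 0.0487), a call lost when some single libraries were left out (adjusted p at most 0.141). GBP5 was the other member called against BON-1, but it reached at most 0.363 CPM there, so that call too restates its change in SK-N-SH. For FL against vector no member differed between lines in edgeR or in DESeq2 (all genes in edgeR, 0.284% for BON-1 and 0.160% for QGP-1), with 2 and 4 members at an unadjusted p under 0.05 (all genes, 9.38% and 8.64%).

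**Figure D5:**
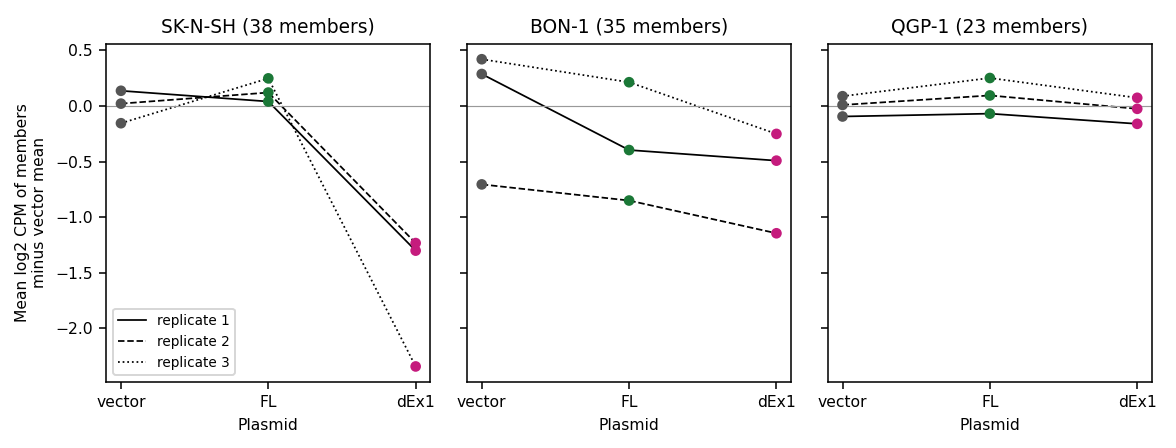
Mean log2 CPM over the members used in each line (38 in SK-N-SH, 35 in BON-1, 23 in QGP-1) minus the vector mean of that line, 1 point per library, with lines joining libraries of the same replicate number. In SK-N-SH the dEx1 points lie at -1.30, -1.23 and -2.34 and the FL points near 0; in BON-1 replicate 2 is lowest with each plasmid; in QGP-1 all points lie between -0.16 and 0.25.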

How the data were processed

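RNA was sequenced from 27 libraries, 3 per line and plasmid, grouped by their sample labels. The deposited table holds the authors' estimated counts per gene symbol, whole numbers that match no stated rule of counting. Per the submitters' processing notes, the tools were Trimmomatic for adapters, HISAT2 for alignment (genome build hg19) and StringTie for abundance. Tool versions, the step from abundance to counts, the annotation and any use of strand are not given in the sources used here. Low values pile up at 5 (7317 values, against 4312 at 4 and 2556 at 6), so what 1 fragment is worth in count units is not known. If it is worth more than 1 unit, sampling noise is larger than the totals imply.

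Of 23234 rows, 4 repeated an earlier symbol with identical values and were dropped. Genes were kept by filterByExpr, scaled by TMM and tested with edgeR 4.0.16 (limma 3.58.1, R 4.3.3): quasi-likelihood F test, 1 fit of 9 libraries per line, 1 fit of the 9 vector libraries and 1 fit of all 27 for differences between lines, with Benjamini-Hochberg adjustment over all genes tested and a threshold of 0.05. Fold changes are edgeR's, with its default shrinkage, and standard errors were taken from the quasi-likelihood F statistic. CPM values use the TMM-scaled totals of the fit they belong to. Depth per library was 73026244 to 120254457 units, which with 3 libraries per group sets the precision of low members.

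The rule for named members was: MX1, IFITM3, ISG15 and ADAR in each line; the 5 largest called rises and falls with groups that do not overlap; where none was called, the 2 smallest p; and the 3 smallest p of each called difference between lines. Other members were named by role. The members, lists and rules were chosen with earlier results of these data known. Same-numbered libraries were checked for pairing by the correlation of their deviations from group means, with 0.1 as the limit. In BON-1 every pair passed (lowest 0.121, 0.113 and 0.240 for vector with FL, vector with dEx1 and FL with dEx1), and in QGP-1 FL with dEx1 passed (lowest 0.223), so the numbers were taken to pair those groups. The reported tests have no block; the fit with the replicate number as a block is an alternative, and counts within pairs are given beside it.

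The alternatives were DESeq2 1.42.0, its size factors in edgeR, 2 other filters, MAML3 left out of scaling, a 5 CPM minimum for members, other sets of libraries in the fit, each library left out, a replicate block, and terms for libraries that stood apart. The edgeR fit within each line was tried on simulated counts first, for dEx1 against vector only. Gene positions are GRCh37, from a GENCODE annotation lifted to that build. Printed elements are GRCh38.p14, from the RefSeq promoter table, and no coordinates were moved here between the builds. Figures were drawn with matplotlib 3.10.9.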

Additional observations from a re-analysis of the deposited data

Results flagged for a closer look

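The 8 results here were picked out because a change measured in SK-N-SH differed from the same change in another line by a direct test of the difference (edgeR quasi-likelihood interaction test over all 27 libraries, Benjamini-Hochberg adjusted). Values are differences in log2 change, SK-N-SH minus the other line. For dEx1 against vector, ISG20 gave -2.985 against BON-1 (adjusted p = 0.0370) and -3.104 against QGP-1 (adjusted p = 0.0211). For dEx1 against FL, ISG20 gave -4.22 against BON-1 and -4.603 against QGP-1 (adjusted p = 0.000584 and 0.000393). BST2 gave -3.813 and -3.802 (adjusted p = 0.00147 and 0.00616), and GBP5 gave -4.113 against BON-1 (adjusted p = 0.0345). BST2 reached at most 0.436 CPM in QGP-1 and GBP5 at most 0.363 CPM in BON-1, so no change in those lines could be measured and these 2 values restate the change in SK-N-SH. PARP12 gave -1.819 against QGP-1 (adjusted p = 0.0106), where it was at 15.5 to 19.2 CPM in all 9 libraries.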

How the results depend on the processing

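No member changed direction while called under any alternative, and the 6 comparisons within BON-1 and QGP-1 stayed at 0 calls except that DESeq2 called 1 member for FL against vector in QGP-1. For FL against vector in SK-N-SH (0 calls), DESeq2 called 2, a term for replicate 3 gave 1, replicates 1 and 2 alone gave 2, and leaving out 1 library gave 0 to 1. For dEx1 against vector in SK-N-SH (28 calls), the 6 compared libraries alone gave 9, the fit of all 27 gave 12 and leaving out 1 library gave 6 to 34; the replicate 3 term gave 38. For dEx1 against FL (36 calls) leaving out 1 library gave 32 to 36, and for the vector libraries it gave 34 to 36, 36 to 37 and 28 to 32. Differences between lines depended most on the setting. For dEx1 against vector with BON-1 (1 call), DESeq2 and the 2 CPM filter each gave 2 and leaving out 1 library gave 0 to 2; with QGP-1 (1 call) DESeq2 gave 6 and leaving out 1 library 0 to 3. For dEx1 against FL with BON-1 (4 calls) DESeq2 gave 8 and leaving out 1 library 2 to 6; with QGP-1 (3 calls) DESeq2 gave 12, the 2 CPM filter 6 and leaving out 1 library 3 to 6. The number of all genes called also moved between settings, as given above for dEx1 against vector in SK-N-SH, and is not set beside each count here. These counts alone therefore show no result about the members. The causes were not tested. Where leaving out a library left a group with 2, the fit pooled the spread over groups.

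With the replicate number as a block, dEx1 against vector in SK-N-SH gave 37 calls and dEx1 against FL gave 36. The block raised the differences between lines to 3 and 13 calls for dEx1 against vector (BON-1 and QGP-1) and to 16 and 18 for dEx1 against FL. It called no member within BON-1 or QGP-1. All-gene counts of the block fits are not given here, so more calls among the members cannot be told apart from more calls in general. By the limit of 0.1 the numbers did not pair all SK-N-SH libraries (lowest correlations 0.0478, 0.0874 and 0.0972), nor vector in QGP-1 (-0.141 and -0.168). There the block was taken as a second fit and not as the design's pairing. In SK-N-SH only replicate 1 fell under the limit, while replicates 2 and 3 correlated at 0.253 to 0.461. Each SK-N-SH FL and dEx1 library correlated best with its own number, which did not hold for vector with either form in BON-1. The limit thus divides lines with similar values.

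Precision was limited by 3 libraries per group, by the unknown worth of 1 count unit and, in QGP-1, by levels of a few CPM.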
